A study of Mus musculus with 6 samples.

Results

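The 4 Notch receptor genes (Notch1, Notch2, Notch3 and Notch4) and the 5 genes of their canonical ligands (Dll1, Dll3, Dll4, Jag1 and Jag2) were examined in sorted mouse intestinal stem cells. All 9 genes were found among the 18193 genes of the array, by probe sets whose single annotated symbol was that of the gene. They are covered by 18 of 45101 probe sets, and each gene is represented by the probe set with its highest mean over the 6 arrays. The cells came from small intestine of Lgr5-EGFP-IRES-creERT2 mice, in which the Lgr5 gene drives EGFP and a tamoxifen-inducible Cre. Every mouse of both groups carried this allele, and cells with high GFP were collected 24 h after vehicle (DMSO, 3 mice) or DBZ (3 mice), a gamma-secretase inhibitor. The labels used here state no strain, sex or age of the mice. The dose of DBZ is not used, because its unit in the labels has probably lost a prefix. Groups follow the sample titles. The description of every array mentions DMSO only, against the titles of 3 of them.

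Notch signalling passes between touching cells. A Delta or Jagged ligand on one cell binds a Notch receptor on its neighbour, the receptor is cut first by an ADAM protease and then by gamma-secretase, and the freed intracellular part joins Rbpj in the nucleus to switch on genes such as Hes1. In the intestinal crypt this keeps stem cells undifferentiated, while cells that escape it switch on Atoh1, become secretory and display Delta ligands to their neighbours. Notch1 and Notch2 are the receptors known to act in the crypt epithelium, with Dll1 and Dll4 as their ligands. Notch4 and Dll4 are also known from endothelium, Notch3 from the mural cells of vessels, and Jag1 from both.

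The upstream sequences of the 3 genes whose expression passed the test, Dll1, Dll4 and Notch1, are shown here because the ligands moved in one direction and the receptor in the other. Each is the 250 bases before the annotated start (RefSeq, GRCm38.p6), 5′ to 3′ on the strand of the gene. Dll1 lies on the minus strand at chr17:15376933-15377182 (the outer of its annotated starts), Dll4 on the plus strand at chr2:119325534-119325783 and Notch1 on the minus strand at chr2:26503823-26504072. Capitals mark matches to the motifs searched.
Dll1: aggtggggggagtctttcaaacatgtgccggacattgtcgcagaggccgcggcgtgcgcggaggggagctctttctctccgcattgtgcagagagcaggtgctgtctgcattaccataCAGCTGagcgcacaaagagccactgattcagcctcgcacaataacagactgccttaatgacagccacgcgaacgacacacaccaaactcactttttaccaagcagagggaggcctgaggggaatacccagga
Dll4: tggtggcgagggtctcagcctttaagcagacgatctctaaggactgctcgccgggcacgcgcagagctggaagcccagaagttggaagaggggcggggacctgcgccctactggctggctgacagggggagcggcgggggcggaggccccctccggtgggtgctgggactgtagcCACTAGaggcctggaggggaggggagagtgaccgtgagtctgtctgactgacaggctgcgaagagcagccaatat
Notch1: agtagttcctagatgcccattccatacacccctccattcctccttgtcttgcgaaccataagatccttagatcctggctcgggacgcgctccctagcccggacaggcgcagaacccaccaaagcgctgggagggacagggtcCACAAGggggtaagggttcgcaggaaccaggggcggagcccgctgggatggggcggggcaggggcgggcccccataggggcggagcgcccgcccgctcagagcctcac

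Short motifs of 4 kinds were searched on both strands: TGGGAA, the core of the Rbpj site, CAGCTG and CATCTG, forms of the E-box bound by factors of the Atoh1 class, and CACNAG, the N-box of Hes repressors. No stretch of letters can match more than a single one of them, although CACNAG can share its end with CAGCTG. In the Dll1 window CAGCTG was found once, at -132 to -127 from the start, while the window of the inner Dll1 start, not printed, held none of the 4. The Dll4 window held CACNAG at -75 to -70 and the Notch1 window held it at -108 to -103. The other motifs were not matched in these windows, which says only that the letters are not there. Over all 10 windows of the 9 genes TGGGAA was found in 0, CAGCTG in 3 (also Dll3 and Jag1), CATCTG in 0 and CACNAG in 4. Of all 32851 promoter windows of the same length 21.6%, 13.0%, 14.4% and 36.7% held them. GC content of the windows printed was 56.0% for Dll1, 65.6% for Dll4 and 66.0% for Notch1, against a median of 52.4% over all windows.

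The authors deposited linear intensities per probe set, with array medians of 44.9 to 46.3. Replicates are separate mice. The Notch targets Hes1, Nrarp and Olfm4 were lower in each of the 3 arrays titled DBZ than in each vehicle array, and Lgr5 overlapped at 204 to 271 with vehicle and 209 to 242 with DBZ. Other stem markers moved both ways. Of 10 in the list 1 was higher by the test, Rgmb (log2 difference 0.79; limma, adjusted p = 0.022). Olfm4 and Ascl2 (-1.03; limma, adjusted p = 0.025) were the 2 that were lower. Markers of other cells were present too. Over all genes, 3.82% were higher by the test and 1.52% lower. Summed goblet markers stood at 108438 to 116301 with vehicle and 134445 to 165610 with DBZ (2 of 7 higher by the test, 0 lower). Summed mural and smooth muscle markers stood at 17199 to 25711 and 34635 to 38701 (4 of 8 higher, 0 lower). Adipocyte markers stood at 1424 to 3091 and 5095 to 12125 (2 of 5 higher, 0 lower). Not every list rose. Enterocyte markers stood at 65346.5 to 68599 and 54412 to 64852, with 0 of 6 past the test and 0 with a difference above 0. Paneth markers were mixed, at 67380 to 78018 and 45267 to 83924 (3 of 7 higher, 0 lower, and 2 with DBZ apart below). No defining marker is listed at 0, since the values have a floor near 7. The highest value of an array lay between 27330 and 29871. The goblet genes Tff3 and Zg16 and the Paneth gene Lyz1 each reached it in at least 1 array. Whether a ceiling held back such bright genes, which weigh most in these sums, was not tested. The actin control's 3′ to 5′ signal ratio, which reflects RNA integrity, lay between 1.61 and 2.22 with vehicle and between 1.51 and 1.57 with DBZ, so it moved with the groups, and its part in the results was not tested. The same ratio of the Gapdh control overlapped, at 1.07 to 1.42 with vehicle and up to 1.09 with DBZ, and both ratios were highest in vehicle replicate 1.

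With DBZ, Dll1 and Dll4 rose and Notch1 fell, while Notch2, Notch3, Notch4, Dll3, Jag1 and Jag2 did not pass the test. By limma with Benjamini-Hochberg adjustment over all genes, 3 of 9 genes passed at 0.05, with 2 higher and 1 lower, where 5.34% of all genes passed. The groups did not overlap for 6 of the 9, where 33.2% of all genes were apart. DBZ was above for 4 (17.3% of all genes) and below for 2 (15.8%). Of the 18 probe sets 11 were apart, where 28.7% of all probe sets were. The median log2 difference of the 9 genes was 0.00 and that of all genes was -0.02, so the 9 genes shared no direction. Differences are of log2(intensity + 16) and understate the change of dim genes.

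**Figure D1:**
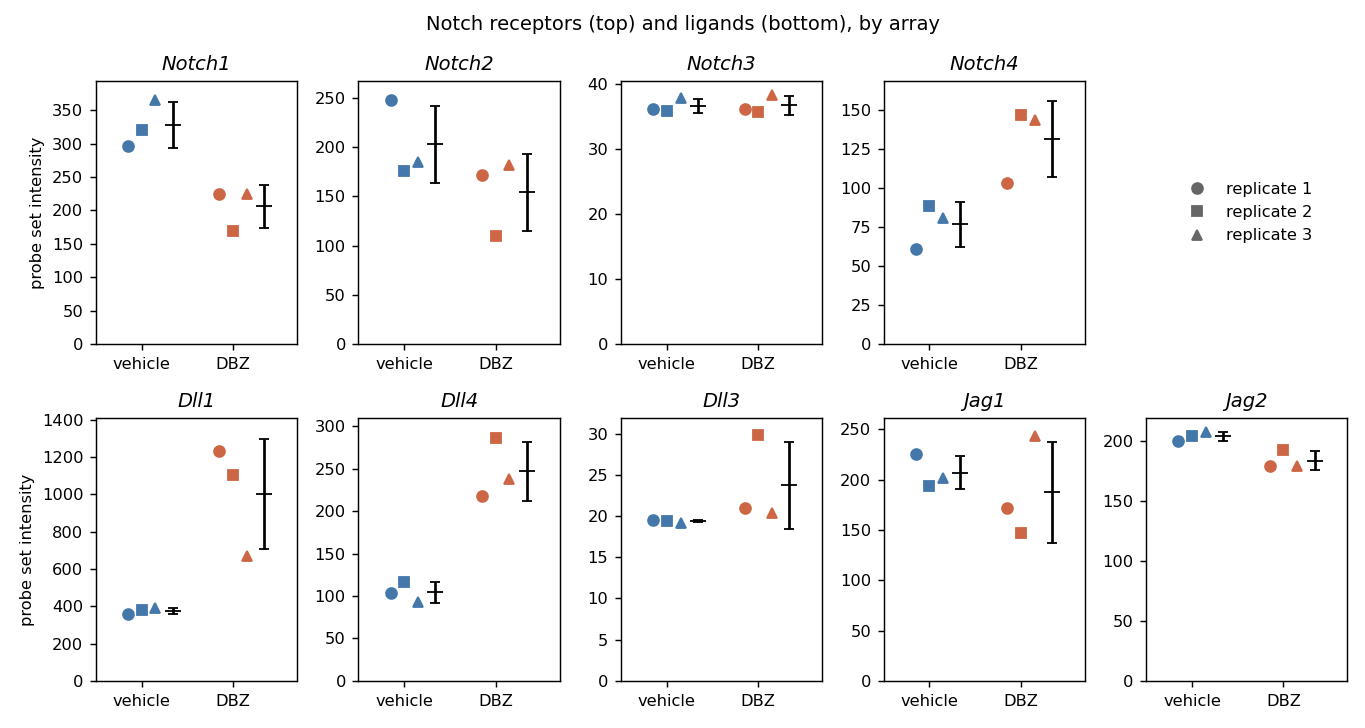
Probe set intensity (linear, axes from 0, a scale of its own for each gene) of the 4 receptors and 5 ligands in 3 vehicle (blue) and 3 DBZ (orange) arrays, with replicates by symbol and mean ± SD in black. Dll1 and Dll4 are higher in every DBZ array than in any vehicle array, as are Notch4 and Dll3. Notch1 and Jag2 are lower, and Notch2, Notch3 and Jag1 overlap.

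Dll1, the Delta ligand that early secretory cells display, rose with DBZ. It was at 359, 377 and 389 in vehicle replicates 1, 2 and 3, and at 1233, 1101 and 669 in DBZ replicates 1, 2 and 3. The vehicle mice were close together and the DBZ mice spread widely, with replicate 3 well below the other two. The means were 375 ± 15.1 and 1001 ± 295 (SD, n = 3), a log2 difference of 1.33 ± 0.22 (SE), or 2.52-fold on this scale, and the 95% interval ran from 0.80 to 1.87 (limma, adjusted p = 0.034). Dll1 has a single probe set.

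Dll4, the other Delta ligand of the crypt, was at 104, 116 and 92.6 in vehicle and 218, 286 and 238 in DBZ replicates 1, 2 and 3. Every DBZ array lay above every vehicle array, and here replicate 2 was the highest. The log2 difference was 1.13 ± 0.12 (SE, n = 3; 95% interval 0.83 to 1.42; limma, adjusted p = 0.019). The second Dll4 probe set moved likewise, from 80.1 ± 6.81 to 226 ± 43.1 (SD, n = 3). Its vehicle mean lay inside the background range given below with Dll3, gene means of 11.0 to 81.6. Its log2 difference was 1.32 ± 0.13 (SE; limma, adjusted p = 0.025 over all probe sets). Dll4 therefore passed by both of its probe sets, among 1.95% of all probe sets that did.

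Cells that commit to the secretory lineage express Delta ligands, and their regulators stood as follows in the same arrays. Atoh1, which commits crypt cells to that lineage, was at 614 to 870 in vehicle and at 2434, 2740 and 3257 in DBZ replicates 1, 2 and 3. Neurog3, the regulator of endocrine progenitors, was at 39.0 to 56.7 in vehicle and at 521, 197 and 75.0 in DBZ replicates 1, 2 and 3 (limma, adjusted p = 0.14). Within the DBZ group Dll1 and Neurog3 thus ranked the mice in one order and Atoh1 in the reverse, which is a description of 3 arrays. The progenitor markers Gfi1 and Spdef ranked the mice as Atoh1 did. Neurod1 and Insm1, regulators of endocrine cells, were highest in DBZ replicate 2, so no other listed progenitor marker shared the order of Dll1. Of 6 secretory progenitor markers 5 rose and 0 fell, where 3.82% of all genes were called higher and 1.52% lower. The summed level of the 6 markers was 1172 to 1438 with vehicle and 4436 to 5657 with DBZ. Because all sorted cells were measured together, more cells of a type and more RNA per cell cannot be told apart, here or for any gene below.

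Endothelial markers were also higher, at a summed 1326 to 1402 with vehicle and 1766 to 2003 with DBZ. Of 11 such genes 3 rose, namely Kdr (the main receptor for vascular endothelial growth factor), Esam and Eng, and 0 fell. Over all genes, 3.82% were called higher and 1.52% lower. The list median was 0.43 against -0.02 for all genes, and DBZ was apart above for 10 of the 11 (17.3% of all genes). Plvap, the brightest of them, weighed most in the sum at 415 to 529 and 559 to 671, and did not pass (limma, adjusted p = 0.086). The vehicle means of Pecam1, Cdh5, Tek, Tie1 and Robo4 lay inside the background range. The part of the endothelial markers in the Dll4 difference was not tested.

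Dll3, a divergent ligand that is not known to activate Notch in neighbouring cells, was dim throughout. It was at 19.2 to 19.5 in vehicle and 20.9, 29.8 and 20.3 in DBZ replicates 1, 2 and 3. The groups did not overlap, and DBZ replicate 2 stood above the rest. The log2 difference was 0.16 ± 0.10 (SE, n = 3; limma, adjusted p = 0.37), and 0.05 without that mouse. As a gauge of background, 12 genes of retina, testis, heart and lens had means of 11.0 to 81.6, with Prm1 the highest. Dll3 and Notch3 lay inside that range, so their presence in these cells could not be told from background.

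The Jagged ligands did not pass. Jag1 was at 226, 194 and 201 in vehicle and 171, 147 and 244 in DBZ replicates 1, 2 and 3. DBZ replicate 3 was the highest of all 6 arrays and the other DBZ mice were the lowest, so the groups overlapped. The log2 difference was -0.16, with an interval of -0.58 to 0.27 (limma, adjusted p = 0.62). It was -0.35 without DBZ replicate 3, -0.01 without DBZ replicate 2 and -0.10 without vehicle replicate 1. The other Jag1 probe sets were dimmer and stood at -0.17, with groups apart, and -0.03 (limma, adjusted p = 0.14 and 0.93 over all probe sets). Both lay inside the background range.

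Jag2 differed little between mice, and was at 200.4, 204 and 207 in vehicle and 179, 193 and 179 in DBZ arrays. The DBZ arrays were all below the vehicle arrays by a small margin, with a log2 difference of -0.14 ± 0.06 (SE, n = 3) and an interval of -0.28 to 0.00 (limma, adjusted p = 0.19). Its second probe set was at -0.10, overlapped and lay inside the background range.

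The Delta and Jagged differences were set against each other within each array, as the log2 level of one gene minus that of the other. These pairs were chosen after the values had been seen. Dll1 minus Jag1 lay between 0.64 and 0.91 with vehicle and between 1.40 and 2.77 with DBZ, and Dll4 minus Jag1 was -1.01 to -0.66 and -0.03 to 0.89. Dll1 and Dll4 against Jag2 were also apart between the groups. All 4 pairs reached the smallest two-sided p of an exact permutation test with 3 against 3 arrays, p = 0.1, or 0.15 adjusted over 6 pairs, so this design cannot pass the threshold. Dll1 minus Dll4 overlapped, at 1.57 to 1.90 with vehicle and 1.43 to 2.41 with DBZ (exact permutation p = 0.7, adjusted 0.7).

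**Figure D2:**
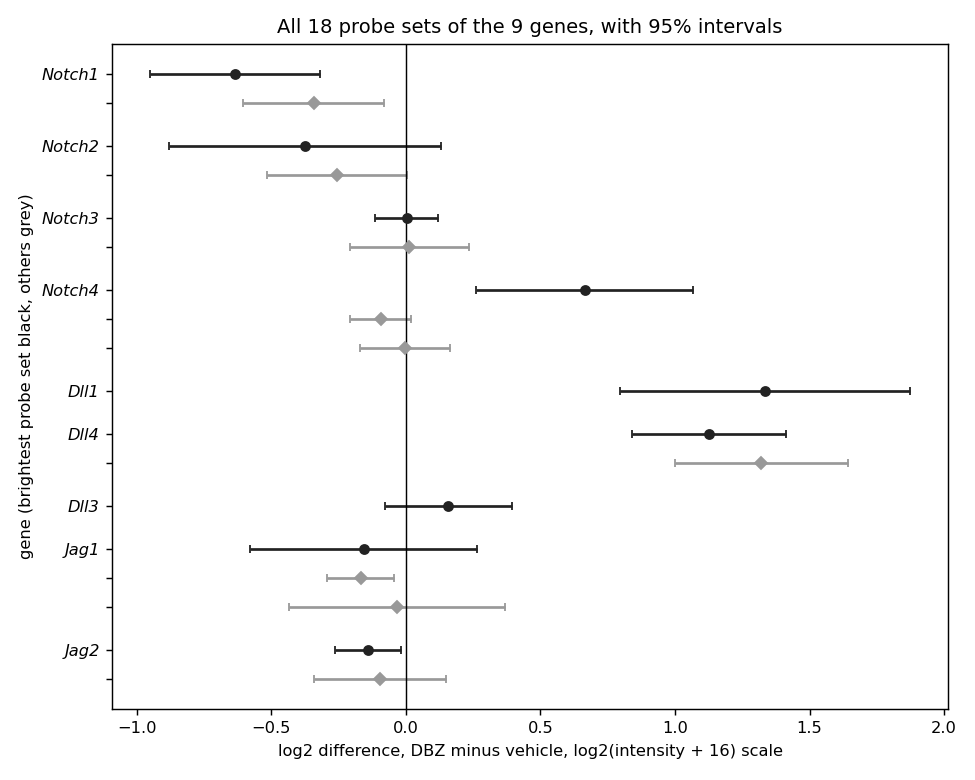
Log2 difference (DBZ minus vehicle) with 95% interval for all 18 probe sets of the 9 genes, from the limma fit over all probe sets. Black circles are the probe sets that represent a gene and grey diamonds its others. Both Dll4 probe sets lie to the right of 0 and both of Notch1 to the left, while the dimmer probe sets of Notch4 do not share the position of its brightest.

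Among the receptors, Notch1, the receptor named in the study's question, was at 297, 320 and 365 in vehicle and 225, 169 and 224 in DBZ replicates 1, 2 and 3. All DBZ arrays were below all vehicle arrays. Notch1 fell from 327 ± 34.6 to 206 ± 31.9 (SD, n = 3), by a log2 difference of -0.63 ± 0.13 (SE) with an interval of -0.95 to -0.32. The call is marginal (limma, Benjamini-Hochberg adjusted p = 0.0495). The second Notch1 probe set was dimmer, with its DBZ mean inside the background range, and also apart, at 94.5 ± 13.7 and 70.9 ± 6.62 (SD, n = 3). Its log2 difference was -0.34 ± 0.11 (SE; limma, adjusted p = 0.14 over all probe sets). In the fit over all probe sets the first had an adjusted p = 0.065 (limma).

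Notch2, the other receptor of the crypt epithelium, was at 247, 175 and 185 in vehicle and 172, 110 and 182 in DBZ replicates 1, 2 and 3. The groups overlapped, because DBZ replicate 3 exceeded vehicle replicate 2. The log2 difference was -0.37 ± 0.21 (SE, n = 3; limma, adjusted p = 0.31), and its interval of -0.88 to 0.13 includes the Notch1 value. It was -0.17 without DBZ replicate 2 and -0.23 without vehicle replicate 1. Its dimmer second probe set was at 48.2 to 67.1 and 40.2 to 46.2, without overlap, at -0.26 ± 0.11 (limma, adjusted p = 0.23 over all probe sets). All of those values lay inside the background range. Within each array, Notch1 minus Notch2 was 0.25 to 0.92 with vehicle and 0.28 to 0.56 with DBZ on the log2 scale (exact permutation p = 0.4, adjusted 0.48 over 6 pairs), a test that cannot go below 0.1 here and does not show whether the receptors differ. Leukocytes also express Notch2, and their markers overlapped at a summed 2246 to 3583 and 1865 to 3007, with 0 of 6 past the test. Of the 6 only 2 were above 0, and the list median was -0.17. The macrophage gene Cd68 was apart at 0.97 (limma, adjusted p = 0.12). Csf1r, also a macrophage gene, was at -0.34 and overlapped (limma, adjusted p = 0.41). Neutrophil markers, listed separately, stood at a summed 119 to 150 and 664 to 5390. Among these 5 genes S100a8 and S100a9 were higher and 0 lower, where 3.82% of all genes were called higher and 1.52% lower. These 2 genes made up most of the DBZ sum, at 308 to 2746 and 259 to 2532. The other neutrophil genes did not pass, with Csf3r at 0.37 and Cxcr2 at 0.03, both overlapping, and Elane at -0.06, apart below. The sum therefore does not show that neutrophil genes as a list rose. The part of these markers in the Notch2 values was not tested.

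Notch3 stood level, at 35.8 to 37.8 with vehicle and 35.6 to 38.3 with DBZ, a log2 difference of 0.00 with an interval of -0.13 to 0.14 (limma, adjusted p = 0.98). Its other probe set stood at 0.01, and both lay inside the background range. Of the mural and smooth muscle markers given above, the 4 that rose in the same DBZ arrays were Acta2, Tagln, Des and Cnn1, genes of the contractile cytoskeleton, with Des at 1.20 ± 0.17 (SE, n = 3). Myh11, a smooth muscle myosin, was at 1.03 with groups apart and did not pass (limma, adjusted p = 0.082). The receptor gene Pdgfrb, a marker of mural cells, was at -0.22 with groups overlapping, and the pericyte genes Rgs5 and Cspg4 were at 0.41 and 0.22 and did not pass (limma, adjusted p = 0.30, 0.22 and 0.11).

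Notch4 was at 61.0, 88.9 and 80.9 in vehicle and 103, 147 and 144 in DBZ replicates 1, 2 and 3. The groups were apart and the mean went from 77.0 ± 14.4 to 132 ± 24.5 (SD, n = 3). The log2 difference of 0.66 ± 0.17 (SE; 95% interval 0.26 to 1.07) did not pass (limma, adjusted p = 0.072). The other Notch4 probe sets were near the floor, at 9.33 to 16.6 over all arrays, with differences of -0.09 and 0.00, so the value rests on 1 of 3 probe sets. As the mean of the 3 it was 0.19. Its vehicle values also reached down into the background range. The endothelial markers given with Dll4 were higher in the same arrays, and their part in this difference was not tested.

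The calls depended on which array was left out. With any 1 vehicle array left out none of the 9 genes passed, and the adjusted p (limma) rose to 0.11 for Dll1 in each such fit, to between 0.070 and 0.076 for Dll4 and to between 0.11 and 0.14 for Notch1. Over all 18193 genes 49, 19 and 38 passed without vehicle replicates 1, 2 and 3, against 972 with all arrays. Without DBZ replicate 1, Dll1, Dll4, Notch1 and Notch4 passed. Without DBZ replicate 2 Dll4 alone passed, and without DBZ replicate 3 Dll1 and Dll4 did. Over all genes 2032, 217 and 352 passed without DBZ replicates 1, 2 and 3. The calls of these genes thus moved with those of the whole array. The differences moved less than the calls. Over these 6 fits they were 1.16 to 1.60 for Dll1, 1.02 to 1.21 for Dll4, -0.70 to -0.51 for Notch1 and 0.53 to 0.81 for Notch4.

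**Figure D3:**
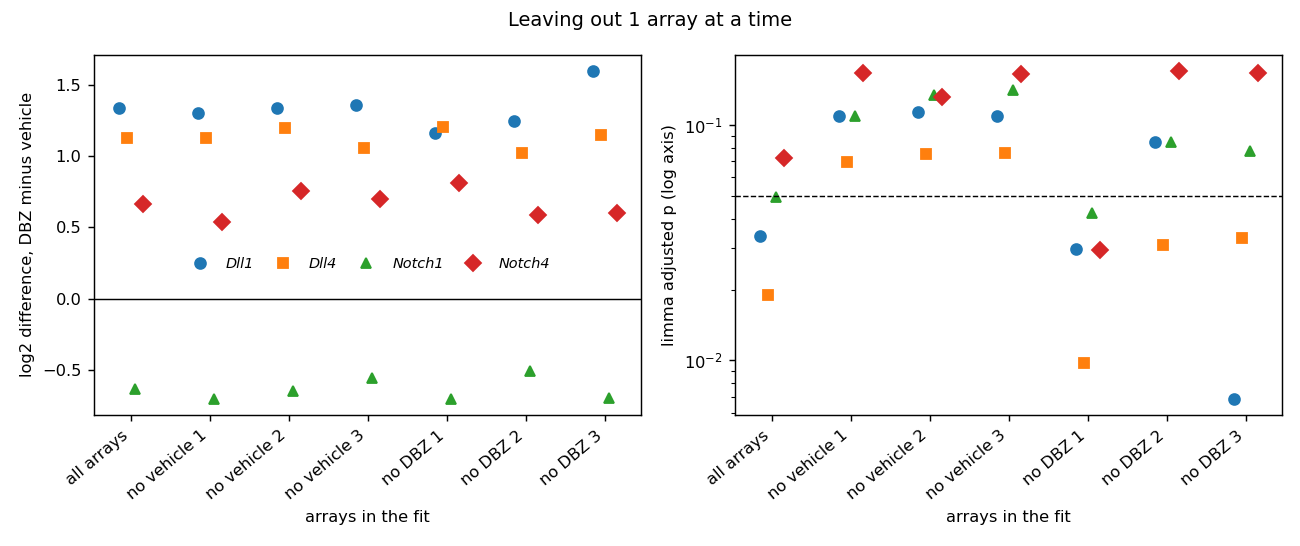
Log2 difference (left) and limma adjusted p on a log axis (right, dashed line at 0.05) for Dll1, Dll4, Notch1 and Notch4 with all arrays and with each array left out. The differences keep their sign in all 6 fits, while every one of the 4 lies above the dashed line when any vehicle array is left out. In those fits 19 to 49 of all 18193 genes pass.

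The rest of the pathway was read from lists of genes by role, 66 measured genes in all. Of these 2 rose and 5 fell, where 3.82% of all genes were called higher and 1.52% lower, and their median was -0.03. Among 10 non-canonical ligands 2 rose and 0 fell. Dner, a transmembrane protein reported to bind Notch, was at 59.7, 84.4 and 69.3 in vehicle and 114, 147 and 155 in DBZ arrays (log2 difference 0.83 ± 0.15, SE; limma, adjusted p = 0.037). The vehicle mean of Dner, 71.1, lay inside the background range. Thbs2, a matrix protein of mesenchymal cells, was at 57.4 to 80.6 and 110 to 121 (0.57 ± 0.12; limma, adjusted p = 0.049). Its vehicle values lay inside the background range, and as the mean of its probe sets it was at 0.10 and did not pass (limma, adjusted p = 0.42). It lay beside fibroblast markers whose summed level was 7516 to 10595 with vehicle and 15867 to 20716 with DBZ (3 of 7 higher, 0 lower).

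Of the genes for ligand endocytosis, sugars of the EGF repeats and proteases outside gamma-secretase only 1 passed, where 5.34% of all genes did. Lists of 3 to 9 genes are too short to show fewer calls than that. None of 8 genes of ligand endocytosis passed, with the epsin Epn2 at 0.28 and the ubiquitin ligase gene Neurl1a at 0.37 (limma, adjusted p = 0.12 and 0.17), both at 0.09 as the mean of their probe sets and Epn2 at 0.11 without _x_at and _s_at probe sets. Of 9 genes that put sugars on the receptors' EGF repeats 1 fell. This was Rfng, a Fringe glycosyltransferase that alters which ligands a receptor answers to, at 821, 682 and 690 in vehicle and 513, 455 and 375 in DBZ arrays (-0.69 ± 0.13, SE; limma, adjusted p = 0.045). The other Fringe genes Lfng and Mfng were at 0.14 and 0.06 (limma, adjusted p = 0.38 and 0.66), and the xylosyltransferase gene Gxylt2, at background level, was at 0.21. None of 3 genes for proteases outside gamma-secretase passed. Furin, which cuts the receptor during its maturation, was at 266 to 311 with vehicle and 206 to 235 with DBZ, without overlap, at -0.38 ± 0.08 (limma, adjusted p = 0.054). Adam17 was at 0.25 and Adam10, the protease of the activating cut, at 0.05.

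None of 5 measured gamma-secretase genes, which encode the target of DBZ, passed the test, and the groups overlapped for all 5. Over all genes 5.34% passed and 33.2% were apart, so 5 genes are too few to show that this list was unchanged. Aph1a was at 1048 to 1179 with vehicle and 907 to 1189 with DBZ, and Psen2 at 236 to 257 and 232 to 312. Their log2 differences were -0.17 and 0.12 (limma, adjusted p = 0.42 and 0.53). The Aph1a probe set is of the _s_at type, and Aph1a was at -0.52 without _x_at and _s_at probe sets and -0.32 as the mean of its probe sets (limma, adjusted p = 0.055 and 0.095). None of 10 genes of the nuclear complex and its corepressors passed either, while 3 of them, Snw1, Cir1 and Ep300, were apart with DBZ below (15.8% of all genes). Rbpj, the DNA-binding partner of Notch, was at 420 to 450 and 431 to 477, with Cir1 at -0.31 and Ep300 at -0.29 (limma, adjusted p = 0.12 each).

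Of 11 genes of receptor turnover 1 fell, Dtx1, a Deltex ubiquitin ligase. It was at 224, 158 and 176 in vehicle and 109, 123 and 97.6 in DBZ arrays (-0.67 ± 0.14, SE; limma, adjusted p = 0.049). As the mean of its probe sets it was at -0.38 and did not pass (limma, adjusted p = 0.057). Fbxw7, which marks the freed Notch fragment for destruction, was at 0.36 (limma, adjusted p = 0.097). Of 10 target genes 3 fell and 0 rose, namely Olfm4 at -6.63, Nrarp at -1.89 and Hes1 at -0.82. Over all genes 1.52% were called lower. The 7 other targets were mixed, with Hes6 (0.44) and Hey2 (0.12) apart above and Hey1 (-0.22) apart below. Myc (-0.01), Hes5, Hes7 and Heyl overlapped. Hes1 was at 332, 399 and 430 in vehicle and 181, 255 and 202 in DBZ arrays, and Nrarp at 468 to 542 and 93.9 to 168. Of the 7 calls in these lists, that of Olfm4 alone held with every single array left out. Nrarp held in 3 of these 6 fits, Hes1 in 2, Rfng and Dner in 1, and Thbs2 and Dtx1 in 0. The fall of the Notch1 gene was smaller than that of Olfm4, Nrarp and Hes1, though the difference was not tested.

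**Figure D4:**
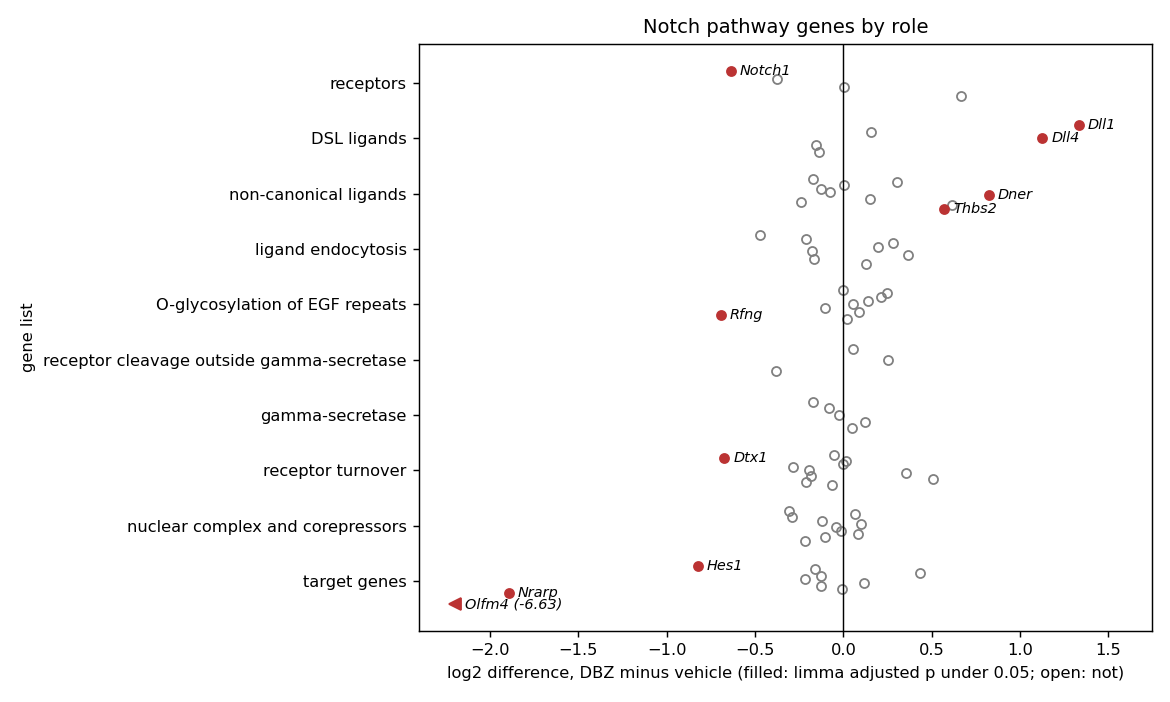
Log2 difference (DBZ minus vehicle) of each measured gene, arranged by its role in the pathway, filled where the limma adjusted p was under 0.05 and open otherwise. Olfm4 lies beyond the axis, at the value written beside it. Calls lie to the right of 0 among the ligands and to the left of 0 in the other lists with calls. The lists of ligand endocytosis, cleavage outside gamma-secretase, gamma-secretase and the nuclear complex have none, where 5.34% of all genes were called.

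For each gene that ranged over at least 1 log2 unit across the 6 arrays, the 3 genes with the most similar profile were found among 9090 genes brighter than the median gene. Likeness was the root mean square difference of the log2 values over the 6 arrays, after each gene was centred on its mean. Dll4 lay nearest to Hopx (0.11), a homeodomain protein used as a marker of reserve stem cells, then Cd55 and Nrep. Dll1 lay nearest to Ctps (0.14), a CTP synthase, and farther from Hspa2 and Kcne4 (0.21 and 0.24). Notch1 was closest to Htra3, Hsdl2 and Scpep1 (0.10 to 0.12). Notch2 was closest to Ifi35 (0.05), Csf1r, the receptor of macrophage growth factors, and Rassf5. Notch4 was closest to Snd1, Alg5 and Copb2 (0.05 each), of which Alg5 acts in N-glycosylation and Copb2 in vesicle coats. The profiles hold 6 arrays in 2 groups, so a like difference between the groups is part of the measure.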

How the data were processed

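Total RNA of GFP-high cells from 6 mice was amplified with a 3′ IVT kit and hybridised to Affymetrix arrays, per the labels' protocols. The authors deposited probe set intensities on a linear scale. Which software, background correction or normalization made them is not given in the sources used here. Array medians differed by 0.03 on the log2 scale, so the values were not normalized again. Of 45101 probe sets 34945 had a single symbol and were no control, 932 had several symbols and 9160 none. Symbols were checked by Entrez identifier for 34741, and 0 changed.

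Log2(intensity + 16) of the probe set with the highest mean was tested for 18193 genes with lmFit and eBayes of limma 3.58.1, under R 4.3.3 (two-sided, Benjamini-Hochberg threshold 0.05), without a filter. SE is moderated. The number of arrays limits the precision. Tested on simulated arrays of 18193 genes, the fit found 79% of 100 shifts of 1 log2 unit and 96% of 100 shifts of 2, with 7 false calls. The simulated noise was independent between genes, with nothing shared by the genes of an array. These shares are therefore not the power of the real arrays. Named genes are all 9 receptors and ligands, pathway genes past the threshold (or the 2 of smallest p in a list), Lgr5, Olfm4, Hes1, Nrarp and Atoh1, and the 3 nearest profiles. Lfng, Mfng, Adam10, Rbpj and single markers were named after their values were seen. The genes and lists were chosen with earlier results of these data known. Promoter sequences are from RefSeq (GRCm38.p6), with all 9 genes matched. Alternatives covered normalization, pseudocount, dim genes, probe set choice, variance model, array weights, replicate number, threshold and each array left out.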

Additional observations from a re-analysis of the deposited data

How the results depend on the processing

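With 3 mice per group, the calls are less stable than the differences. Leaving out 1 array at a time, between 19 and 2032 genes passed (972 with all arrays), and between 0 and 4 of the 9 receptor and ligand genes. A pseudocount of 64 left 440 genes and 1 of the 9, Dll4. Array weights gave 2690 genes and a threshold of 0.1 gave 2575, each with 4 of the 9, Notch4 being added. Trended and robust variance also added Notch4 (limma, adjusted p = 0.048). Notch1 was past the threshold in 7 of 17 alternatives, Dll1 in 12 and Dll4 in 14, all with their sign kept. Besides single arrays, Notch1 lost its call with centring on array medians (limma, adjusted p = 0.055), a pseudocount of 64 (0.070), every probe set tested (0.065), probe sets without _x_at and _s_at (0.051) and the replicate block (0.058). Notch3, near 0, changed sign at -0.026 with array weights and ranged from -0.0199 to 0.0192 with single arrays left out (below 0 without vehicle replicate 1, vehicle replicate 2 or DBZ replicate 3), and Psen2 was at -0.0225 as the mean of its probe sets. The cause was not tested. As to pairing, the replicate block gave 889 genes and 3 of the 9 (Dll1, Dll4 and Notch4). Deviations of equal numbers correlated across genes at -0.0086, 0.25 and 0.20, and those of unequal numbers at -0.289 to 0.0136. The labels do not say that equal numbers mark paired mice, and these values do not settle it.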
